A study of Mus musculus with 12 samples.

Results

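Hotspots of meiotic recombination were examined at 75 mouse genes of endosomal sorting in the testis of Ankrd31 knockout mice and of wild type B6 mice. The genes were chosen by a naming rule, with earlier results of these data known. The rule takes protein-coding genes whose symbol starts with Snx, Vps or Chmp followed by a digit, 75 of 21631 protein-coding genes. They comprise 30 Snx, 35 Vps and 10 Chmp genes, lie on 20 chromosomes with 1 of them on X, and span 2.53 to 560 kb. The assay, DMC1 single-stranded DNA sequencing (SSDS), recovers the single-stranded DNA that the recombinase DMC1 coats beside a meiotic double-strand break, so that each enriched interval, a hotspot, marks a place where recombination starts. The knockout group consists of 2 adult males carrying the Ankrd31 allele tm1Atot, whose strain background the labels do not give, and the wild type group of 2 adult males of C57BL/6JCrl. Chromatin came from whole testis in both groups. A single hotspot list was deposited for each genotype, so values are compared between 2 lists without replicates, and no p-value is given. A difference in strain background cannot be told apart from the loss of Ankrd31.

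Sorting nexins (Snx) carry a PX domain that binds phosphoinositide lipids of endosomes, and those with an additional BAR domain bend the membrane into tubules through which receptors are recycled. Vps genes take their name from yeast mutants that missort proteins of the vacuole. Their products form retromer, which returns cargo to the Golgi and the cell surface, the tethering complexes HOPS, CORVET and GARP, and parts of the ESCRT machinery. Chmp genes encode the ESCRT-III subunits, which assemble into filaments that cut membrane necks in multivesicular endosomes, in dividing cells and at the nuclear envelope. The assay measures breaks at these genes and not their expression, so neither the loss of Ankrd31 nor the tissue could be checked against marker genes. In mice, breaks are normally placed by the histone methyltransferase PRDM9 away from promoters. ANKRD31 belongs to the break-forming machinery, and the comparison addresses the sites of recombination in its absence.

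Where the strand was known, end hotspots found only in the knockout list lay at the gene start. For this reason 6 promoters are printed here. Each is the RefSeq GRCm38.p6 window from 250 bases before to 50 bases after an annotated start, written 5′ to 3′ on the strand of the gene. Snx12 (chrX:101222514-101222813, minus strand), Vps4a (chr8:107031019-107031318, plus strand) and Chmp2b (chr16:65562713-65563012, minus strand) had the strongest knockout hotspot at a start among the members of their family with an entry. Snx13 (chr12:35046939-35047238, plus strand) has its annotated start inside the listed gene interval, and a knockout hotspot there. Vps26a (chr10:62486756-62487055, minus strand) and Vps29 (chr5:122354078-122354377, plus strand) encode subunits of the same complex, retromer, and only Vps26a of these 2 had a knockout hotspot at its start. Snx13, Vps26a and Vps29 were picked after their values were seen. Capitals mark matches on either strand to 7 motifs: GGGCGG (SP and KLF factors), TATAAA (the box of that name in core promoters), GCATGCGC (core of the NRF1 motif), CCGGAAG (ETS factors), TGACGTCA (CRE), CCAAT (NF-Y) and AAGATGGC (YY1). None of the motifs is contained in another.
Snx12: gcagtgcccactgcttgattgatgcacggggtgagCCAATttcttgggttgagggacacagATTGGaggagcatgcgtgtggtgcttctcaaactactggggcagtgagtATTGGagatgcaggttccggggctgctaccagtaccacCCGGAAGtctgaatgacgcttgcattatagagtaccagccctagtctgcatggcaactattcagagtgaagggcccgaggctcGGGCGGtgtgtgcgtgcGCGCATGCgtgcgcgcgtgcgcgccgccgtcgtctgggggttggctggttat
Vps4a: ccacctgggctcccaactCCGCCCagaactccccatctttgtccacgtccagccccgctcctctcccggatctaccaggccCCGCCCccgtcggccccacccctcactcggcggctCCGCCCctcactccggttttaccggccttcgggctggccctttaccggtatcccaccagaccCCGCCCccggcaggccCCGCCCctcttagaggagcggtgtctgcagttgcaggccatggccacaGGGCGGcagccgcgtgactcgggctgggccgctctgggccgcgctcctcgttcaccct
Chmp2b: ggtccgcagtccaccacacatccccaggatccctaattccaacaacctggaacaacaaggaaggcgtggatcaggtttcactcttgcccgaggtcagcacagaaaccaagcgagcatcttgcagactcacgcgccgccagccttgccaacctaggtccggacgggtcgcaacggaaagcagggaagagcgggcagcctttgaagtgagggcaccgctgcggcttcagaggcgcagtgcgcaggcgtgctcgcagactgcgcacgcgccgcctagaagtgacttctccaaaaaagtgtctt
Snx13: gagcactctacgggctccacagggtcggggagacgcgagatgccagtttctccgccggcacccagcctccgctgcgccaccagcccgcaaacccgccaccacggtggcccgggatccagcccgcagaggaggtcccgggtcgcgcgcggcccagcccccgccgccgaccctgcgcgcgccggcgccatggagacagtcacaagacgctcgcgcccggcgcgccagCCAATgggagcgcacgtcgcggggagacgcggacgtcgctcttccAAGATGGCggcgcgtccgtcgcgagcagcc
Vps26a: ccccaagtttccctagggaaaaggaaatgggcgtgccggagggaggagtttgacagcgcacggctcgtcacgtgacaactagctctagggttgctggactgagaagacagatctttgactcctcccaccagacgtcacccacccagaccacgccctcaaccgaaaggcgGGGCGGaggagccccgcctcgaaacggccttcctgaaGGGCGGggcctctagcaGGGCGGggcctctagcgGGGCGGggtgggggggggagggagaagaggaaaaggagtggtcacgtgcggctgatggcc
Vps29: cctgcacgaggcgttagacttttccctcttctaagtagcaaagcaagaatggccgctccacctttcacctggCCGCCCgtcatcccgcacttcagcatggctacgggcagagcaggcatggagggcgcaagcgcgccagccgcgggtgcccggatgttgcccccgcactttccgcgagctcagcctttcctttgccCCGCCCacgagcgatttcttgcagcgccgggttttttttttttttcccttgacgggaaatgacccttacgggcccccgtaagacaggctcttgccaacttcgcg

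The first comparison asked how many of the genes had a hotspot at an end, meaning a hotspot centred within 1 kb of either end of the gene. In the knockout list 36 of 75 genes (48%) had such a hotspot, against 1 of 75 (1.33%) in the wild type list. Over all protein-coding genes the shares were 27.1% in the knockout list and 1.99% in the wild type list, so the endosomal sorting genes were above that background in the knockout and close to it in the wild type. All 36 genes had an end hotspot that overlapped no wild type hotspot, here called knockout-only, for which the background was 25.5%. The wild type hotspot lay at Snx18, a relative of the endocytic protein gene Snx9, and Snx18 had a knockout-only hotspot at its other end.

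The counts by family were as follows. An end hotspot of the knockout list was present at 18 of 30 Snx genes (60.0%), 14 of 35 Vps genes (40.0%) and 4 of 10 Chmp genes (40.0%). These shares depended on how strong a hotspot had to be. Strength is the read count of a hotspot minus its local background. With the knockout list reduced to its strongest 13480 hotspots, the number in the wild type list, 9 Snx genes (30.0%), 10 Vps genes (28.6%) and 1 of the 10 Chmp genes had an end hotspot, against 16.0% of all protein-coding genes. Snx genes led Vps genes in the whole list and were nearly level with them among stronger hotspots. The median strength of knockout-only end hotspots was 84 for Snx, 110 for Vps and 67 for Chmp genes. Over all 36 it was 90.5, with a range of 26 to 382, and over all 4920 such hotspots at protein-coding genes it was 94. No test was made between the families, whose counts are small.

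**Figure D1:**
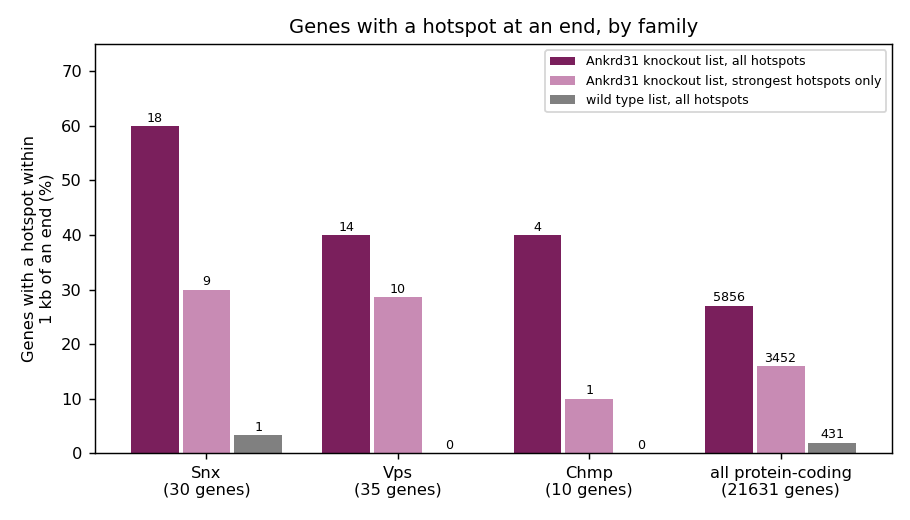
Share of genes (percent, y axis) with a hotspot centred within 1 kb of an end, for the 30 Snx, 35 Vps and 10 Chmp genes and for all 21631 protein-coding genes, in the whole knockout list, in its strongest 13480 hotspots and in the wild type list. Numbers above the bars count genes. Snx leads at 60.0% in the whole knockout list, and Snx and Vps are nearly level at 30.0% and 28.6% among the stronger hotspots.

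Among the sorting nexins, the membrane-bending SNX-BAR group had the highest share, with a knockout end hotspot at 9 of 12 genes. These included Snx9, which acts with dynamin in clathrin-mediated endocytosis (strength 177), and Snx2, Snx5, Snx6 and Snx32, whose products belong to the retromer-linked SNX-BAR proteins (114, 85, 134 and 83). Snx8 had 92, Snx18 had 78 at its start, Snx7 had 59 and the recycling and autophagy gene Snx4 had 55. Each of these 9 hotspots was knockout-only, as at all 36 members with a knockout end hotspot. Of the 9, 3 were above the median strength of the knockout list (105). At the 11 sorting nexins outside the named domain groups, 3 were also above it, so the lead was not seen among stronger hotspots. Snx1, the partner of Snx2, as well as Snx30 and Snx33 had no knockout hotspot at an end.

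The strongest end hotspots of the Snx family were found outside the SNX-BAR group. Snx16 had a strength of 350 (380 reads, 95% exact Poisson interval 343 to 420), rank 2591 of the 22034 knockout hotspots. Snx12, a PX-domain gene related to Snx3 and the only member on X, had 293 (295 reads, 262 to 331). Snx10, which is needed for bone resorption by osteoclasts, had 185, and the PX-domain genes Snx21, Snx3 and Snx11 had 83, 74 and 26. In all, 6 of the 11 remaining sorting nexins outside the named groups had one. The value of Snx11 was close to the weakest listed in the knockout, which was 16.

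In the group with a FERM domain, 1 of 3 genes had a knockout end hotspot: Snx27, whose product returns receptors to the cell surface through retromer (115). Snx17, which recycles integrins, and Snx31 had none. In the RGS and PXA domain group it was 2 of 4, Snx14, mutated in a human cerebellar ataxia (82), and Snx19 (42). Snx25 had none. Snx13 was not counted, because its knockout-only hotspot of strength 116 was centred 1132 bp from the listed gene end, just outside the window. The annotated start of Snx13 in the promoter table lies 1042 bp inside the gene, and the hotspot was centred 90 bp from it.

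Among the Vps genes, the ESCRT ATPase genes Vps4a and Vps4b, whose products take ESCRT-III filaments apart, had the highest and the lowest value of the family. Vps4a had a strength of 382 (387 reads, 95% exact Poisson interval 349 to 428), rank 2249 in the knockout list and the strongest of all 36, and Vps4b had 36 (44 reads, 32.0 to 59.1). The intervals of the 2 paralogues did not overlap.

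For retromer, 2 of 4 subunit genes had a knockout end hotspot, Vps26a (223) and Vps26b (117), which encode alternative versions of the same arrestin-like subunit. The scaffold gene Vps35 and Vps29 had no hotspot of either list at an end or in the body. Vps26c and Vps35l, which encode subunits of the related complex retriever, had 134 and 64. The hotspot of Vps35l was centred 669 bp from the gene end, the largest distance among the knockout-only hotspots at these genes.

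The other Vps complexes had hotspots at some of their genes. For the lysosomal and endosomal tethers HOPS and CORVET, 3 of 7 genes had a knockout end hotspot: Vps8 (137), specific to CORVET, Vps41 (54), specific to HOPS, and the shared core gene Vps18 (47). The core genes Vps11, Vps16 and Vps33a had none in either list. For GARP and EARP, tethers of vesicles returning from endosomes, only Vps54 (97) of 5 genes had one; a Vps54 mutation causes motor neuron loss and failed sperm formation in the wobbler mouse. Among the bridge-like lipid transfer genes it was 1 of 4, Vps13a, mutated in chorea-acanthocytosis (280), while Vps13b, Vps13c and Vps13d had none.

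Of the ESCRT-I and ESCRT-II subunits, which gather ubiquitinated cargo, Vps37c (140), Vps37a (103) and Vps36 (89) had a knockout end hotspot. Vps28, Vps37b, Vps37d and Vps25 had none. The fusion regulator genes Vps33b and Vps45, Vps9d1, and Vps72, which despite its name encodes a subunit of chromatin remodelling complexes, also had none at an end.

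Among the ESCRT-III genes, Chmp2b, mutated in a form of frontotemporal dementia, had the strongest end hotspot (133, from 148 reads, 95% exact Poisson interval 125 to 174). It was followed by Chmp4c, which delays the final cut of cell division (68), Chmp1a (66) and Chmp3 (60). The intervals of the reads of the last 3 overlapped one another. Chmp1b, Chmp2a, Chmp4b, Chmp5, Chmp6 and Chmp7 had no hotspot of either list at an end or in the body.

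**Figure D2:**
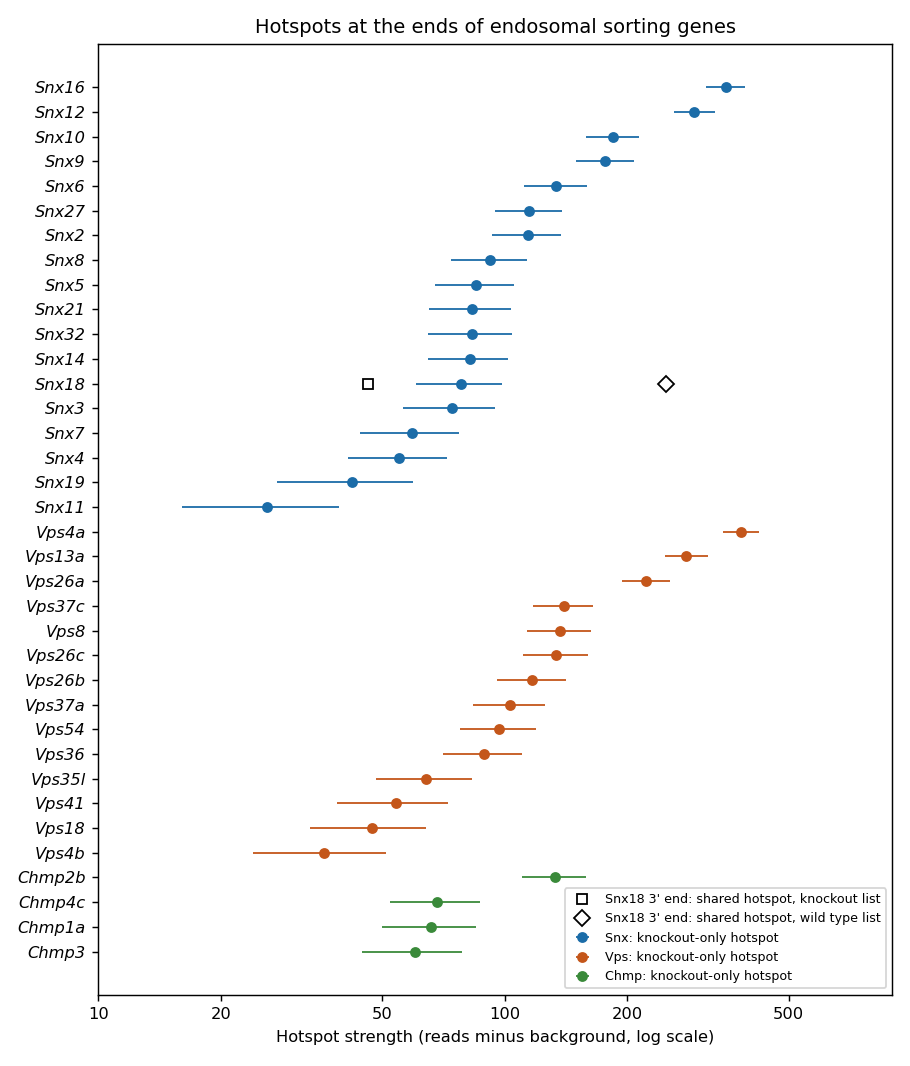
Strength (reads minus background, log scale) of the 36 knockout-only hotspots at the ends of Snx, Vps and Chmp genes, in order of strength within each family. Bars are 95% exact Poisson intervals of the reads, shifted by the background, and cover counting error only. The open square and the open diamond give the shared hotspot at the 3′ end of Snx18 in the knockout list (46) and in the wild type list (249), the only hotspot of the wild type list at an end of these genes.

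Of the 36 knockout-only end hotspots, 7 had a strength above the median of the wild type list (152) and 33 exceeded 43, its 5th percentile, so most lay in the range of strengths that the wild type list does hold. Over all protein-coding genes, 1242 of 4920 such hotspots were above that median. These are strengths as deposited, with no scaling between the lists. The deposited lists show only hotspots that were called, and how many reads the wild type had at these places is not known. At 3 of the 36 genes the hotspot was also within 1 kb of an end of a neighbouring protein-coding gene: Snx5 with Mgme1, Chmp1a with Spata33 and Vps26b with Ncapd3. For these pairs a hotspot cannot be assigned to a single gene.

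Which end carried the hotspot was examined next, for the 49 members whose strand is given in the RefSeq promoter table. All 28 knockout-only end hotspots at these members lay at the gene start, against 4327 of 4547 (95.2%) over all protein-coding genes with a strand. The shared hotspot of Snx18 was the exception, as it lay at the 3′ end. It had a strength of 46 in the knockout list and 249 in the wild type list, whereas the start of Snx18, more than 25 kb away, had 78 in the knockout list and no hotspot in the wild type list. Over all protein-coding genes with a strand, 39.3% of the wild type hotspots at gene ends were at the start.

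The knockout-only hotspots were centred close to the start. Their centres ran from 223 bp upstream (Snx4) to 359 bp into the gene (Snx12), with a median of 65.5 bp into the gene, and 17 lay downstream and 11 upstream of the start. Over all protein-coding genes with a strand the median was 95.5 bp. Of all 36, including genes with no strand, 33 (91.7%) were within 250 bp of the gene end, against 71.2% of such hotspots at all protein-coding genes. All 36 intervals spanned the end itself, which intervals this wide (median 1777 bp) mostly do. Over all protein-coding genes, 5787 had an end inside a knockout hotspot and 5856 had a hotspot centred within 1 kb. Among the 26 members with no strand in the table, 8 had a knockout end hotspot.

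**Figure D3:**
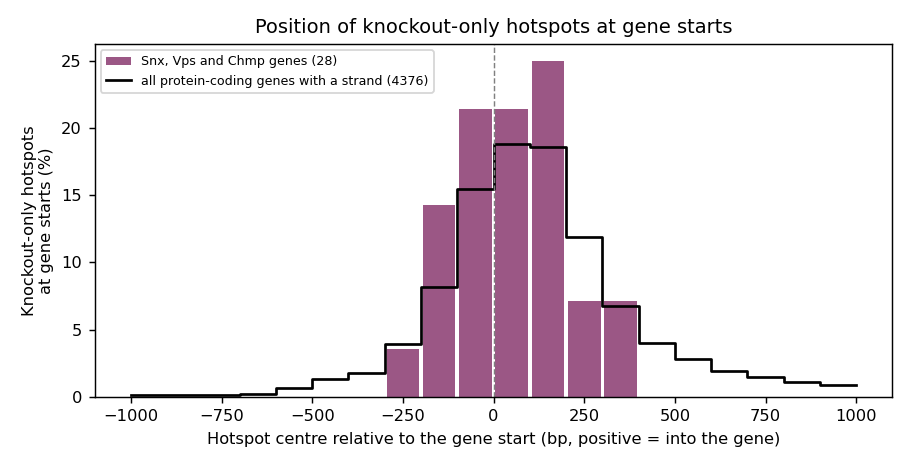
Position of knockout-only hotspot centres relative to the gene start (bp, positive into the gene), as percent of hotspots per 100-bp bin, for the 28 hotspots of Snx, Vps and Chmp genes (bars) and for all protein-coding genes with a strand (line). All 28 centres lie between 223 bp upstream and 359 bp downstream.

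Base composition of the promoters was compared, since it was not used to choose the genes. A promoter window within 1 kb of the outer start was available for 46 members. CpG-rich promoters, with a GC content of at least 50% and a ratio of observed to expected CpG of at least 0.6, made up 39 of the 46 (84.8%), against 46.9% of all 15534 such protein-coding promoters. Over all protein-coding genes, 80.9% of promoters with a knockout-only hotspot at the start were CpG-rich, against 34.3% of those without. Within CpG-rich promoters, 25 of 39 members (64.1%) had a knockout-only hotspot at the start, against 46.6% over all protein-coding genes. By family this was 13 of 17 Snx, 10 of 17 Vps and 2 of 5 Chmp genes. Within the endosomal sorting genes themselves the median ratio of observed to expected CpG was 0.80 with a hotspot and 0.82 without, and the median GC content 65.3% with and 62.0% without. The families did not all go the same way. The median CpG ratio was 0.80 with and 0.70 without a hotspot for Snx genes, 0.77 and 0.83 for Vps genes, and 0.82 and 0.74 for Chmp genes. Of the Snx promoters, 13 of 13 with a hotspot and 4 of 7 without were CpG-rich. For Vps promoters it was 10 of 12 with and 7 of 8 without, and for Chmp promoters 2 of 3 with and 3 of 3 without.

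Hotspots and CpG-rich promoters did not always go together. Vps41 (GC 40.7%, CpG ratio 0.49), Vps4b (47.0%, 0.92) and Chmp3 (49.7%, 0.76) had a hotspot at a promoter that was not CpG-rich. Of the 18 members with no knockout-only hotspot at the start, 14 had a CpG-rich promoter. Among them were Vps29 (60.7%, 0.96), Vps52 (58.7%, 1.01) and Snx29 (63.0%, 0.99).

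**Figure D4:**
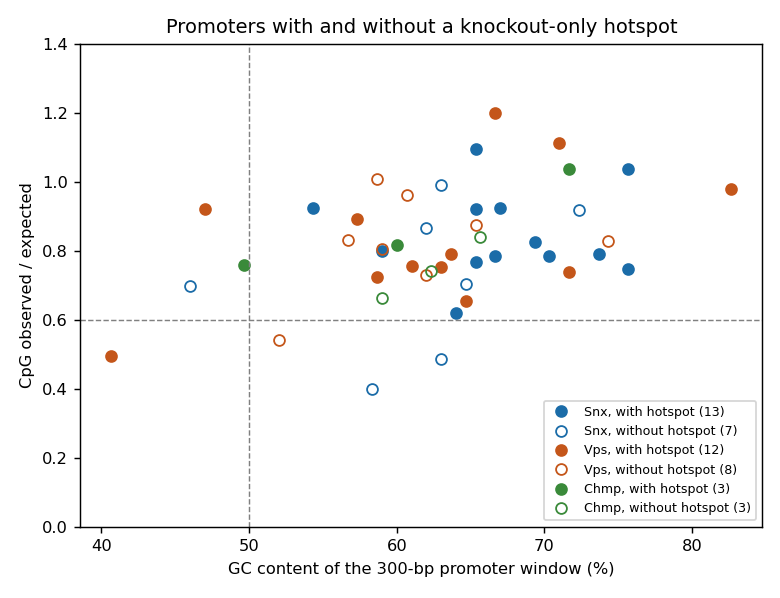
GC content (percent, x axis) and ratio of observed to expected CpG (y axis) of the 300-base promoter windows of 46 Snx, Vps and Chmp genes, filled where a knockout-only hotspot lay at the start and open where it did not. Dashed lines mark 50% GC and a ratio of 0.6. Filled and open points overlap over most of the range.

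The motif GGGCGG was present in 20 of 28 member promoters with a knockout-only hotspot (71.4%) and 12 of 18 without (66.7%), and over all protein-coding promoters in 75.5% with and 37.0% without. In the promoters printed above, Vps4a has 6 matches, Vps26a 4 and Snx12 1, and Chmp2b and Snx13 have 0, all of them with a hotspot. Vps29, with no hotspot, has 2. These promoters were picked, so their match counts do not describe the members. The ETS motif CCGGAAG was in 6 of 28 with a hotspot and 5 of 18 without, against 12.2% of all protein-coding promoters. CCAAT was in 4 of 28 with a hotspot and 7 of 18 without, against 39.8% of all. Chmp2b has none of the 7 motifs in its window and a hotspot of 133. The share of all promoters was 13.8% for TATAAA, 3.77% for GCATGCGC, 2.41% for TGACGTCA and 3.30% for AAGATGGC, and at most 3 member promoters held each of these.

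Hotspots inside the genes were compared next. A hotspot in the gene body, between the ends and over 1 kb from both, was present in 23 of 75 members in the knockout list and in 24 in the wild type list. The background was 21.3% of all protein-coding genes in the knockout list and 18.9% in the wild type list. The members are longer, with a median length of 28.9 kb against 17.3 kb. Per Mb of gene body they held 9.72 hotspots in the knockout list and 10.8 in the wild type list, against 7.79 and 6.59 over all protein-coding genes. Of the 44 knockout and 49 wild type hotspots in bodies, 41 were the same places. Over all protein-coding genes, 5402 of 7848 knockout body hotspots were in both lists, and the wild type list held 6643. A knockout-only hotspot in the body was found in 3 members (4%; background 9.08%). These were Snx13, at its start as described, Snx24 (199), 1850 bp from a gene end, and Snx15 (233), 4332 bp from one. The 8 body hotspots that were absent from the knockout list had wild type strengths of 49 to 180, and 2 of them lay in Vps13c, which had no knockout hotspot.

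Snx genes held 24 body hotspots in the knockout list and 22 in the wild type list, which was 12.8 and 11.7 per Mb. Vps genes held 20 and 26, which was 8.01 and 10.4 per Mb. Chmp genes, with a summed body of 0.157 Mb, had 0 in the knockout list and 1 in the wild type list, a hotspot of strength 92 in Chmp2b. Snx29, the longest Snx gene, held 7 hotspots in each list, and Snx24 held 6 in the knockout list and 5 in the wild type list. Vps13b, mutated in Cohen syndrome, held 5 in the knockout list and 6 in the wild type list. Vps13a, at 166 kb, held none in either list.

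Body hotspots were weaker in the knockout list. Their mean strength was 203 in the knockout list (72.1 kb covered) and 368 in the wild type list (90.3 kb covered), and over all protein-coding genes it was 181 and 335. The medians were 148.5 and 227, against 109 and 166 over all protein-coding genes. Snx12, on X, held the strongest body hotspot, with 909 in the knockout list and 2224 in the wild type list. This 1 hotspot raises both means. A hotspot in Vps8 had 492 and 1037, and one in Vps13b had 443 and 1037. In Vps13d the strongest had 401 and 878, and in Snx29 2 hotspots of like wild type strength had 300 and 816, and 587 and 815.

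The 42 hotspots present in both lists, 41 in bodies and 1 at the end of Snx18, were compared by relative strength. This is the strength divided by the median over autosomal hotspots present in both lists, taken within each list, which was 151 in the knockout and 182 in the wild type. The median log2 ratio of knockout over wild type was -0.78, and 32 of 42 (76.2%) were lower in the knockout. Over the 5752 shared hotspots in or at protein-coding genes the median was -0.30, and 61.4% were lower. A ratio over 2-fold lower was seen in 13 of 42 (31.0%; background 24.5%) and over 2-fold higher in 0 of 42 (background 8.62%). The median was -0.82 over 22 hotspots of Snx genes (SD over hotspots 1.04) and -0.78 over 20 of Vps genes (SD 0.79). A ratio over 2-fold lower was found for 8 of the 22 in Snx genes and 5 of the 20 in Vps genes, and the families were not tested against each other.

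The members' shared hotspots were stronger than usual in the wild type, with a median of 142 in the knockout and 311.5 in the wild type, against 145 and 210 over all protein-coding genes. Ratios vary with wild type strength, and part of that relation follows from ordering by a value that enters the ratio. When the 5752 shared hotspots were divided into 5 classes of nearly equal size by wild type strength, the members differed from the median of their own class by a median of -0.11, and 24 of 42 were below it. The classes did not all go the same way. In the weakest class (wild type strengths of 24 to 90) the 4 members had a median log2 ratio of 0.26 and all hotspots 0.54, and in the next (91 to 159) the 7 members had 0.36 and all hotspots 0.04. In the middle class (160 to 284) the 9 members had -0.96 and all hotspots -0.41, with 6 members below that value. In the next (285 to 563) the 13 members had -0.96 and all hotspots -0.66, with 9 members below. In the strongest class (564 to 7177) the 9 members had -0.96 and all hotspots -1.07, with 3 members below.

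Single hotspots covered a wide range. The largest decreases in relative strength were in Vps33b, a regulator of membrane fusion (64 in the knockout, 534 in the wild type, log2 ratio -2.79), and Snx25 (76 and 633, -2.79). They were followed by the body of Snx18 (54 and 359, -2.46), its 3′ end (46 and 249, -2.17) and Snx13 (123 and 622, -2.07). For Vps33b the log2 ratio of the reads as deposited was -2.99, with an exact binomial counting interval of -3.37 to -2.62. Both listed hotspots of Snx18 outside its start were thus lower in the knockout, while its start was listed in the knockout alone. Snx13 had the same arrangement, with a hotspot at its start in the knockout list and a lower one in its body.

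The largest increases were small. Snx20 had 159 in the knockout and 112 in the wild type (log2 ratio 0.77), and a hotspot in Snx24 had 81 and 68 (0.52). Others were in Vps13d (329 and 280, 0.50), Vps13b (60 and 53, 0.45) and Snx29 (152 and 135, 0.44). For Snx20 the log2 ratio of the reads as deposited was 0.31, with a counting interval of -0.03 to 0.65, which includes 0. The intervals of the other 4 hotspots also included 0 on that scale. For Snx24 the ratio of reads was -0.03 (-0.48 to 0.41), from 86 reads in the knockout and 88 in the wild type. These reads are neither reduced by the background nor divided by the list medians of 151 and 182. On their scale 0 is therefore not equal relative strength, and counting error in the relative values was not tested.

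**Figure D5:**
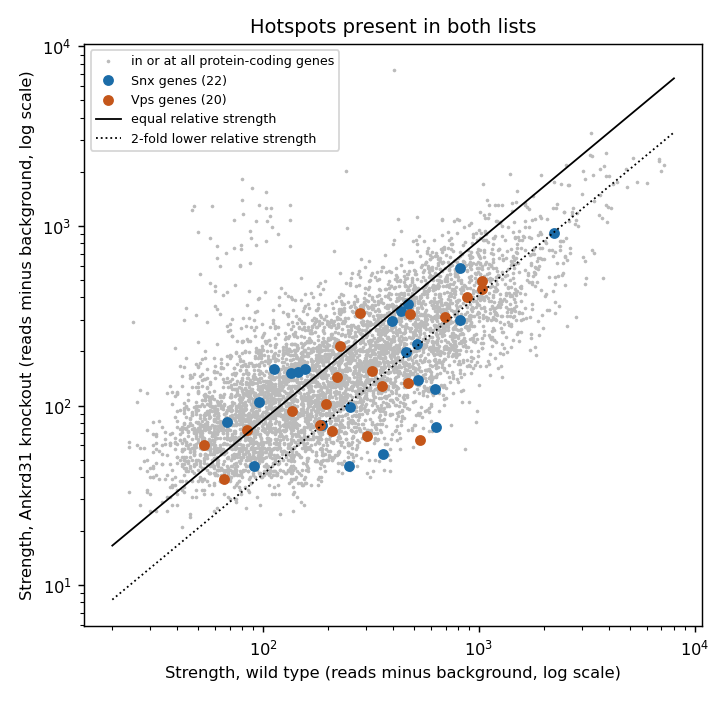
Strength in the Ankrd31 knockout list (y axis) and in the wild type list (x axis), both as reads minus background on log scales, of hotspots present in both lists, for 22 hotspots of Snx genes, 20 of Vps genes and all 5752 in or at protein-coding genes. The solid line marks equal relative strength and the dotted line a 2-fold lower one in the knockout. Of the 42 member hotspots, 13 lie below the dotted line and 0 are over 2-fold higher.

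Of the 36 members with a knockout end hotspot, 10 also held a body hotspot of either list, against 25 of all 75 members. Vps8, Vps41, Vps54, Vps37c and Snx12 were among the 10. No hotspot of either list was present at an end or in the body of 24 of the 75 members. For the 39 members with no knockout end hotspot, the nearest knockout hotspot was a median of 17237 bp from an end, and at 4 it was within 2 kb (Snx13, Vps33b, Snx24 and Vps13b). No share over all protein-coding genes is set beside these counts, so they describe the members only.

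Partner genes outside the naming rule were counted in the same way. Of 30 listed genes that act with the Snx, Vps and Chmp proteins, 14 (46.7%) had a knockout end hotspot, against the 27.1% of all protein-coding genes. In the wild type list 0 of 30 had one, where the background was 1.99%. They included Ubap1, an ESCRT-I subunit gene (144), the WASH complex gene Washc3 (137), the early endosome GTPase gene Rab5a (126) and Stam2, which delivers ubiquitinated cargo to the ESCRT machinery (118). Tsg101, Hgs and Rab7 had none.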

How the data were processed

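DMC1-SSDS was measured in the testis of 2 Ankrd31 knockout and 2 wild type mice, and the analysis started from 1 deposited hotspot list per genotype. The other 8 samples of the series, H3K4me3 and input, were not analysed here. The tools MACS2, BWA, Bowtie2 and CASAVA and the build mm10 come from the submitters' processing notes, which give no versions or roles. No source used here says whether the 2 animals of a genotype were pooled. Per the file headers, the deposited signal reads are a count per hotspot, and the deposited background reads are an estimate in rounded steps, used as given. The deposited strength is a background-corrected signal that equals reads minus background in 100% of hotspots of both lists (within 1 read). The deposited percent strength is the share of the summed strength, and the deposited rank is a score that orders a list. The lists hold 4203380 reads in 22034 knockout hotspots and 4376692 reads in 13480 wild type hotspots. The weakest listed hotspot had 23 and 28 reads.

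Genes came from a RefSeq table of GRCm38.p6, the assembly on which mm10 is built, and hotspot starts are given as the lists have them. Strands and promoter sequences came from the RefSeq promoter table, with an entry for 49 of 75 members. Hotspots were paired between lists by an overlap of at least 1 bp (11487 pairs). Values were computed with Python 3.11.15, pandas 2.3.3, NumPy 2.4.6 and SciPy 1.17.1, and the matching was tested on simulated data. With 1 list per genotype no test was run. Poisson and binomial intervals (95%) cover counting error only, since there is no replicate list. The reads also carry no molecular identifiers. Named genes are members with a wild type end hotspot, the strongest knockout end hotspots of each family, the strongest or most frequent body hotspots, the largest relative changes, and members of the role lists. The role of Vps26c was added after its values were seen. The genes and lists were chosen with earlier results of these data known. The windows, list sizes, strength limits and scalings tried are given in the closing section.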

Additional observations from a re-analysis of the deposited data

How the results depend on the processing

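The 36 members with a knockout end hotspot became 35 with a window of 500 bp (46.7%, all protein-coding genes 23.6%). With 2 kb they were 40 (53.3%, all protein-coding genes 30.5%). They numbered 36 when the end had to lie inside the hotspot (48%, all protein-coding genes 26.8%). With the nearest gene only they numbered 35 (46.7%, all protein-coding genes 24.1%), and without X also 35. With the knockout list reduced to the size of the wild type list the count was 20 (26.7%, all protein-coding genes 16.0%), and with hotspots of at least median strength 15 (all protein-coding genes 12.3%). The knockout-only counts were also 20 and 15 under these settings. With the 2 kb window 4 members had a wild type end hotspot (5.33%, all protein-coding genes 3.99%), and 2 knockout hotspots lay at a 3′ end. Members with a knockout body hotspot numbered 40 when the last 1 kb at each end was included, 13 with hotspots of at least median strength and 14 with the reduced list. No share over all protein-coding genes is given for these body counts. The median log2 ratio of shared hotspots was -1.05 as deposited, -0.97 as percent of summed strength, -0.80 on reads before background subtraction and -0.76 without X. Counting any start of the promoter table was an alternative chosen after the data were seen. It gave 29 of 49 members with a strand a knockout-only hotspot at a start, in place of 28. The share was 59.2%, against 27.8% of all protein-coding genes with a strand. No paired analysis was possible because each genotype has a single list, and for the same reason no replicate could be left out. The number of listed hotspots depends on depth and calling threshold, which could not be compared between the genotypes.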
